A study of Mus musculus domesticus with 18 samples.

Results

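The genes of MHC class II antigen presentation examined here are Cd74, H2-Aa, H2-Ab1, H2-Eb1, H2-Ea, H2-DMa, H2-DMb1, Ctss and Ciita. Every array probe set annotated to only 1 of these 9 symbols was taken, which gave 18 probe sets for 8 genes, out of 45037 probe sets and 18193 named genes. H2-DMb1 had no probe set of its own, because both of its probe sets are also annotated to H2-DMb2. H2-Aa had 4 probe sets, H2-Ab1, H2-Ea and Ciita had 3 each, H2-DMa had 2, and Cd74, H2-Eb1 and Ctss had 1 each. The genes were selected on their log2 differences between altitudes in these same arrays, so their altitude values and calls are given as a description that supports nothing.

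MHC class II molecules are pairs of an alpha and a beta chain that show peptides from endosomes to CD4+ T cells. H2-Aa and H2-Ab1 encode the chains of the A molecule, and H2-Ea and H2-Eb1 those of the E molecule. New chains are held by the invariant chain Cd74, the protease cathepsin S (Ctss) trims that chain to its last fragment, and the H2-DM pair exchanges this fragment for a peptide. Ciita is the coactivator that switches on the class II chains, Cd74 and the H2-DM pair. In liver these genes are known mainly from Kupffer cells, dendritic cells, B cells and sinusoidal endothelium.

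Liver RNA came from 18 male Mus musculus domesticus trapped in the wild. The high altitude group was 9 mice from La Paz, Bolivia, at 3600 m, and the low altitude group 9 mice from Lima, Peru, at 100 m. Each city had 3 trapping locations, called A, B and C within that city, with 3 mice per location and 1 array per mouse. No treatment was named, the age of the mice is not given in the sources used here, and altitude cannot be told apart from city and mouse population. A strain tag reads C57BL/6J for every mouse, against titles and design text that describe wild mice, and it was not used. A mouse is named below by altitude, location and number, as in high A1.

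Values are on a log2 scale, and the submitters' processing notes name RMA, a method that corrects background and puts all arrays on 1 scale. They are comparable between mice within a probe set and not between probe sets. Array medians lay between 5.24 and 5.36, and correlations between arrays between 0.976 and 0.994. As a measure of RNA integrity, the 3 prime value of Actb exceeded its 5 prime value by 1.40 ± 0.32 in the high mice and 1.21 ± 0.17 in the low mice (SD, n = 9 per altitude). The mean of 9 hepatocyte markers lay between 13.04 and 13.61 on every array, so defining markers of the labelled tissue were present. The number of arrays limits the precision.

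Class II levels differed widely between individual mice, and the high altitude mice lay mostly above the low altitude mice. The difference in means was between 2-fold and 3-fold for most probe sets of the A and E chains, Cd74 and H2-DMa, about 1.5-fold for Ctss and smaller for Ciita. For 0 of 18 probe sets did all 9 high mice lie above all 9 low mice, a pattern that 0.0422% of all probe sets had. Less RNA per cell and fewer cells of a type cannot be told apart in these whole-tissue samples.

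Cd74, the invariant chain, was measured by 1 probe set. The mice of high location A had log2 values of 12.61, 11.78 and 11.37, those of B 11.74, 10.93 and 10.14, and those of C 9.999, 11.24 and 8.86. In the low locations, Cd74 lay at 9.93, 9.10 and 9.88 in A, at 8.90, 10.85 and 9.93 in B and at 8.65, 8.43 and 9.09 in C. High A1 was thus the highest mouse and low C2 the lowest, with an 18.2-fold difference between them, and the groups overlapped, since 6 of 9 high mice exceeded the highest low mouse. The high mice averaged 10.96 ± 1.13 and the low mice 9.42 ± 0.78 (SD, n = 9 per altitude), a log2 difference of 1.55 ± 0.41 (SE) or 2.92-fold. The SEs of altitude differences, here and below, take a correlation of -0.00189 between mice of 1 location, shared by all probe sets. They thus treat the mice almost as independent, and are too small for a gene on which mice of 1 location are alike.

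H2-Eb1, the beta chain of the E molecule, gave a similar picture. Its 9 high altitude mice ran from 8.67 through a median of 10.63 to 11.54, and its 9 low altitude mice from 7.74 through 8.81 to 9.55. Of the high mice, 7 lay above every low mouse and 1, high C3, lay below the low mean of 8.77. The log2 difference was 1.497 ± 0.34 (SE), a 2.82-fold higher mean at high altitude.

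H2-Ab1, the beta chain of the A molecule, had 3 probe sets that moved together. On the brightest, 1450648_s_at, high mice ran from 8.09 through 10.01 to 11.85 and low mice from 7.55 through 8.44 to 10.17. Its altitude difference was 1.29 ± 0.42 (SE), and the other two gave 1.51 ± 0.45 and 1.17 ± 0.43. The highest mouse was high A1 on all 3 probe sets, and low C1 or C2 or low B1 was the lowest.

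H2-Aa, the alpha chain of the A molecule, had 4 probe sets that did not rank the mice alike. On the brightest, 1435290_x_at, high mice ran from 8.36 through 10.54 to 10.95 and low mice from 7.66 through 8.64 to 10.32, a difference of 1.43 ± 0.35 (SE). Probe sets 1452431_s_at and 1438858_x_at differed by 1.04 ± 0.41 and 1.07 ± 0.27, and the dim 1443783_x_at by 0.75 ± 0.25 (SE). The suffix _x_at marks probe sets with probes that can match other transcripts, and _s_at those shared by several transcripts.

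H2-Ea, the alpha chain of the E molecule, had the member probe set with the largest altitude difference. C57BL/6J mice carry a deletion in the promoter of this gene, and the RefSeq annotation of that strain (assembly GRCm38.p6) lists it as a transcribed pseudogene; other mouse strains express it. On 1422892_s_at the high locations had 9.90, 8.95 and 8.17 in A, 10.38, 10.68 and 9.47 in B and 8.73, 9.59 and 8.21 in C. The low locations had 8.34, 7.58 and 8.25 in A, 4.83, 5.63 and 5.91 in B and 5.17, 7.02 and 8.01 in C. All 3 mice of low location B and low C1 thus lay below 6, while the other 14 mice lay above 7. The difference of 2.59 ± 0.49 (SE), 6.04-fold, was the highest positive difference of all 45037 probe sets.

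The brightest H2-Ea probe set, 1422891_at, showed a smaller altitude difference of 1.45 ± 0.34 (SE). Its high mice ran from 8.52 through 10.26 to 11.997, and its low mice from 7.94 through 8.60 to 9.32. The remaining one, 1426202_at, stayed between 3.25 and 3.82 in all 18 mice, and 11.8% of probe sets had a lower mean.

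H2-DMa, a chain of the peptide exchange factor, had high mice from 6.38 through 7.94 to 9.36 and low mice from 5.85 through 6.52 to 8.05 on 1422527_at. The difference was 1.15 ± 0.33 (SE), and low B2 held the highest low value. Its second probe set, 1459872_x_at, differed by -0.06 ± 0.13 (SE) and lay between 4.93 and 6.06 in all mice.

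Ctss, the protease, had values of 11.23, 10.59 and 10.88 in high A, 10.59, 10.70 and 10.18 in high B and 10.30, 10.81 and 9.92 in high C. In the low locations it had 10.15, 9.89 and 9.91 in A, 10.31, 10.44 and 10.42 in B and 9.49, 9.21 and 10.06 in C. Low B mice reached the range of high B and C mice, so the location means of the cities overlapped. The difference was 0.59 ± 0.18 (SE), 1.51-fold.

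Ciita, the coactivator, differed little between the groups. On its brightest probe set, 1421210_at, high mice ran from 4.72 through 5.21 to 5.86 and low mice from 4.68 through 5.01 to 5.13, around the median probe set level of 5.31, with a difference of 0.24 ± 0.11 (SE). The other two, 1421211_a_at and 1447075_at, differed by 0.09 ± 0.06 and -0.05 ± 0.08 (SE), and all 3 Ciita probe sets had means below that median.

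**Figure D1:**
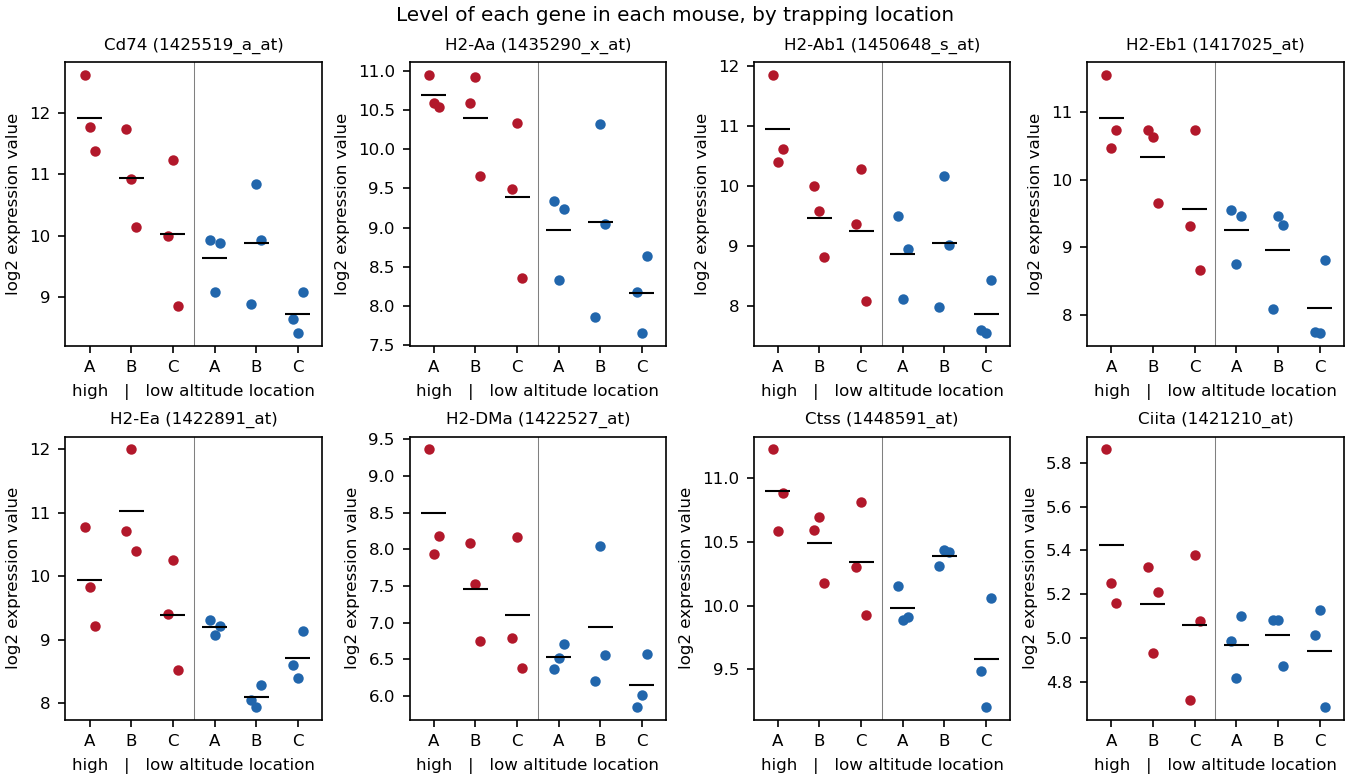
Log2 expression value of the brightest probe set of each of the 8 genes (vertical axis, log2) for each mouse (points) and the mean of each trapping location (bars), with high altitude in red and low altitude in blue. High location A has the highest mean for 7 of the 8 genes and low location C the lowest for 7 of the 8, and mice of 1 location can lie more than 2 log2 units apart.

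Over all 18 probe sets the median log2 difference was 1.11, against -0.00043 over all probe sets, and 16 of 18 were positive, against 49.8% of all probe sets. For 13 of 18 the 3 high location means all lay above the 3 low location means, a pattern that 6.53% of all probe sets had. In limma with location as a random block, 1 of 18, the H2-Ea probe set 1422892_s_at, passed an adjusted p of 0.05, against 0.298% of all probe sets. Its limma adjusted p was 0.402 when each location was reduced to 1 mean. Since the genes were picked for this difference, nothing is read from these counts.

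**Figure D2:**
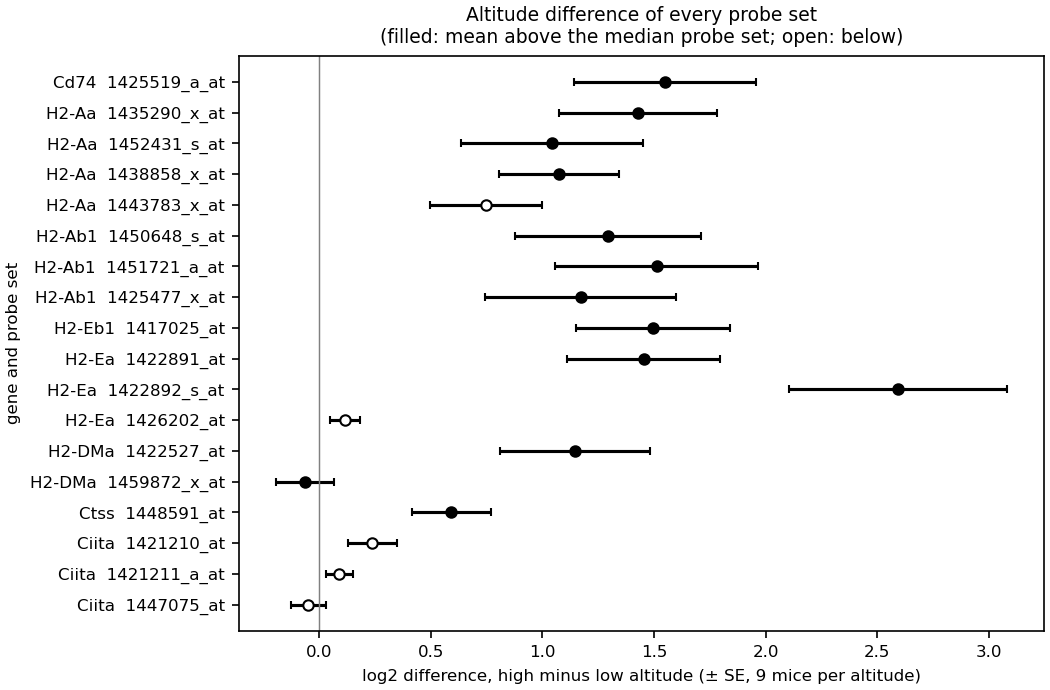
Log2 difference between the means of high and low altitude mice (horizontal axis, high minus low, with SE, 9 mice per altitude) for each of the 18 probe sets, filled where the probe set's mean lies above the median probe set. Differences of the A and E chains, Cd74 and H2-DMa mostly lie between 1.04 and 1.55, H2-Ea 1422892_s_at stands at 2.59, and the Ciita probe sets, H2-DMa 1459872_x_at and H2-Ea 1426202_at lie near 0.

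Leaving out whole locations or mice changed the size of these differences and not the direction of the median. The median over the 18 probe sets was 0.75 without high location A, 1.36 without high location C and 0.91 without low location C. With single mice left out it ran from 0.93 to 1.28.

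The mice of 1 location also differed among themselves. For Cd74, 41.7% of the total sum of squares lay between altitudes, 29.4% between locations of an altitude and 28.9% between mice of a location. For the brightest H2-Aa and H2-Ab1 probe sets the share between mice of a location was 34.6% and 35.2%, and for Ciita 1421210_at it was 61.5%. For H2-Ea 1422892_s_at it was 16.2%, with 58.2% between altitudes. High A1 was the highest of all mice on 10 of the 18 probe sets, and high B2 on 5. At the other end, low C2 was the lowest mouse on 6 probe sets, low C1 on 4 and low B1 on 3.

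Whether class II levels differed between trapping locations within a city was tested with a moderated F test in limma, a contrast that does not use the altitude difference. At high altitude 1 of 18 probe sets was called, the dim H2-Aa probe set 1443783_x_at, against 0.167% of all probe sets. Its mice of location B lay at 4.50, 5.61 and 4.12, all above the A mice at 3.66, 3.64 and 3.29 and the C mice at 3.20, 3.36 and 2.91 (adjusted p = 0.0226). All 18 values except high B2 at 5.61 lay below the median probe set level. The call was lost without high C1 (adjusted p = 0.0552) or high C3 (adjusted p = 0.0671), and when the 9 high mice were fitted alone (adjusted p = 0.188).

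The order B, A, C of this probe set was shared by 3 probe sets above the median level, H2-Aa 1438858_x_at and H2-Ea 1422891_at and 1422892_s_at. The dim H2-Ea 1426202_at had it too. H2-Aa 1438858_x_at had means of 10.02, 9.10 and 9.08, so A and C differed by less than their SDs of 0.87 and 0.80. Cd74, H2-Ab1 and H2-DMa 1422527_at were highest in A. Cd74 averaged 11.92 ± 0.63 in A, 10.94 ± 0.80 in B and 10.03 ± 1.19 in C (SD, n = 3 each), and this difference did not pass limma's test (adjusted p = 0.385). The A means of H2-Ab1 1450648_s_at and H2-DMa 1422527_at were also the highest, at 10.95 ± 0.78 and 8.49 ± 0.76, against 9.47 ± 0.60 and 7.45 ± 0.67 in B (SD, n = 3 each). H2-Ea 1422891_at in location B stood at 11.03 ± 0.85, against 9.94 ± 0.79 in A and 9.39 ± 0.87 in C (limma adjusted p = 0.273). At an unadjusted p under 0.05, 8 of 18 member probe sets differed between the high locations, against 8.39% of all probe sets; probe sets of 1 gene, and genes that vary together, are not independent of each other.

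At low altitude 0 of 18 probe sets were called between locations by limma, against 0.0622% of all probe sets. At an unadjusted p under 0.05 there were 2 of 18, against 6.25% of all. They were H2-Ea 1422892_s_at, with means of 8.06 ± 0.42 in A, 5.46 ± 0.56 in B and 6.73 ± 1.44 in C (SD, n = 3 each, unadjusted p = 0.00151, adjusted p = 0.327 in limma), and Ctss. Ctss averaged 10.39 ± 0.07 in B, 9.98 ± 0.15 in A and 9.59 ± 0.44 in C (SD, n = 3 each, unadjusted p = 0.0123, adjusted p = 0.605 in limma). The low locations A and B thus had opposite orders for these genes, with H2-Ea lower and Ctss higher in B, and neither order passed the adjusted test. Cd74 averaged 9.64 ± 0.47, 9.89 ± 0.97 and 8.72 ± 0.34 in low A, B and C, and the A and B means differed by less than the spread of mice in B.

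Over the brightest probe set of each gene, high location A had the highest mean for 7 of 8 genes, the exception being H2-Ea, and low location C the lowest for 7 of 8, again except H2-Ea, which was lowest in low B. Neighbouring locations in this order could be close. For Cd74 the means of high C and low B were 10.03 and 9.89, which differ by less than the SD of either location.

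Probe sets of the same gene disagreed in particular mice, which was described by each value minus that probe set's median over the 18 mice. In high A1, H2-Aa stood 2.18 and 1.53 above the median on 1452431_s_at and 1435290_x_at but only 0.15 above it on 1438858_x_at. High A4 had 0.80 and 1.12 on the first pair and -0.04 on 1438858_x_at. In high B2 the order was turned, with 0.25 on 1452431_s_at and 2.14 and 2.39 on 1438858_x_at and 1443783_x_at. High B3 lay at -0.74 on 1452431_s_at and at 0.79 and 0.91 on these other two. All 3 mice of high location B were thus relatively higher on 1438858_x_at and 1443783_x_at than on 1452431_s_at. This was not particular to high location B. The same held for all 3 mice of low location C and for high C1, high C3, low A2, low B1 and low B3.

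In low B2 H2-Aa stood 0.90 and 0.78 above the median on 1435290_x_at and 1452431_s_at and at -0.02 on 1438858_x_at. The 3 H2-Ab1 probe sets stayed closer, with 1 mouse, low B2, more than 1 log2 unit apart between 1425477_x_at and the brightest. Class II chains are among the most variable protein sequences between mouse haplotypes, and the part of sequence differences under the probes was not tested.

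**Figure D3:**
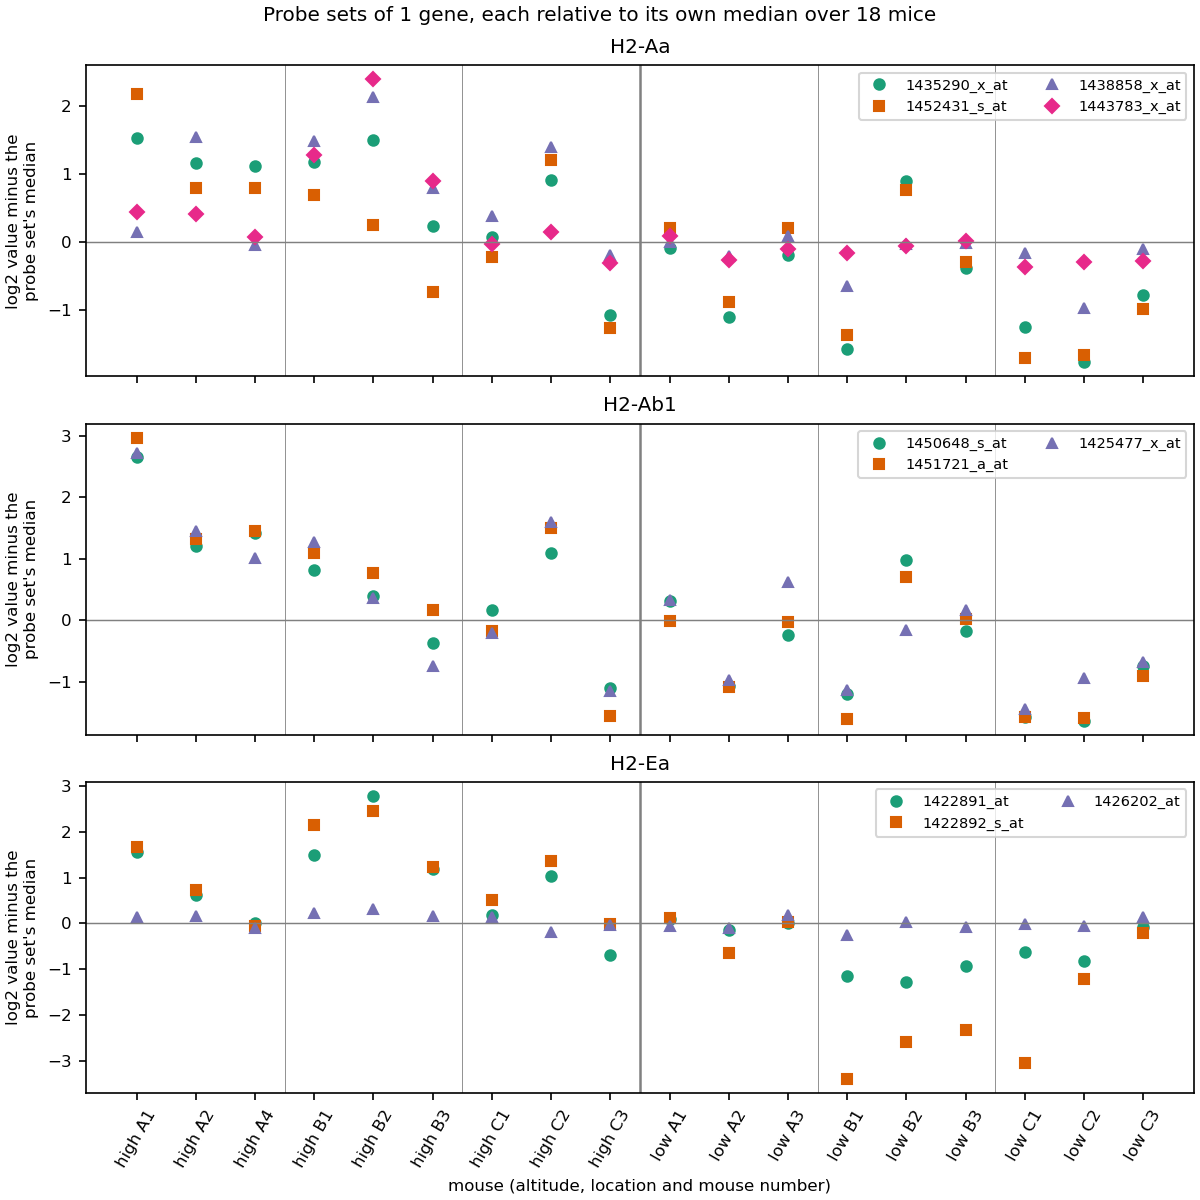
Log2 value minus the probe set's own median over 18 mice (vertical axis) for each mouse (horizontal axis), with 1 symbol per probe set of H2-Aa, H2-Ab1 and H2-Ea. The H2-Ab1 probe sets lie close together in most mice, the H2-Aa probe sets lie apart in many mice of both altitudes, and H2-Ea 1422892_s_at lies between -3.40 and -2.32 in the mice of low B and at -3.06 in low C1.

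H2-Ea departed from the other chains in low location B. Low B2 was the highest low altitude mouse for Cd74 at 10.85, for H2-Aa 1435290_x_at at 10.32, for H2-Ab1 1450648_s_at at 10.17 and for H2-DMa 1422527_at at 8.05. The same mouse was the lowest of all 18 for H2-Ea 1422891_at at 7.94, and its 1422892_s_at value was 5.63. H2-Eb1, whose protein pairs with that of H2-Ea, stood at 9.47 in low B2, close to the highest low altitude value of 9.55 in low A1.

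Members were then compared as deviations from location means, which leaves out altitude and location. Mice with more Cd74 than their location's mean also had more of the A chains, H2-Eb1, H2-DMa and Ctss, and 5 of 7 genes passed the test. Deviations from the location mean gave Pearson's r with Cd74 of 0.96 for H2-Ab1, 0.92 for H2-Eb1, 0.91 for H2-Aa and 0.90 for H2-DMa over the 18 mice. Exact two-sided permutation within locations, adjusted over the 7 genes, gave p of 0.000675, 0.000675, 0.0008 and 0.0009, and Spearman's rho was 0.95, 0.94, 0.90 and 0.85 (adjusted exact permutation p of 0.00045, 0.00045, 0.0005 and 0.00108). Without high C2 and C3, the mice farthest from their location mean in Cd74, r was 0.94, 0.88, 0.88 and 0.87.

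Ctss followed Cd74 less closely, with r = 0.73 and rho = 0.80 (exact permutation p = 0.00206, adjusted p = 0.00288 for r and 0.00108 for rho), and r = 0.58 without those 2 mice. H2-Ea 1422891_at gave r = 0.61 and rho = 0.57 (exact permutation p = 0.05, adjusted p = 0.0583 for r and 0.0694 for rho), and r = 0.39 without the 2 mice. Without low B2 it was 0.72 (adjusted exact permutation p = 0.039), and it also passed without high B1 or high B2. Ciita gave r = 0.37 and rho = 0.34 (exact permutation p = 0.241 and 0.252, the same after adjustment), and r = 0.33 without the 2 mice.

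By probe set, 17 relations in all, the closest to Cd74 was H2-Aa 1452431_s_at, with r = 0.98, while H2-Aa 1438858_x_at gave 0.58 and 1443783_x_at 0.39 (adjusted exact permutation p = 0.00082, 0.0832 and 0.261). Spearman's rho was 0.98, 0.60 and 0.58 (adjusted exact permutation p = 0.000638, 0.0585 and 0.0679). Without the 2 mice farthest in Cd74 these r were 0.97, 0.38 and 0.30. H2-Ea 1422892_s_at gave r = 0.65 and rho = 0.71 (adjusted exact permutation p = 0.00486 for r and 0.0101 for rho), and 0.60 without those mice.

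**Figure D4:**
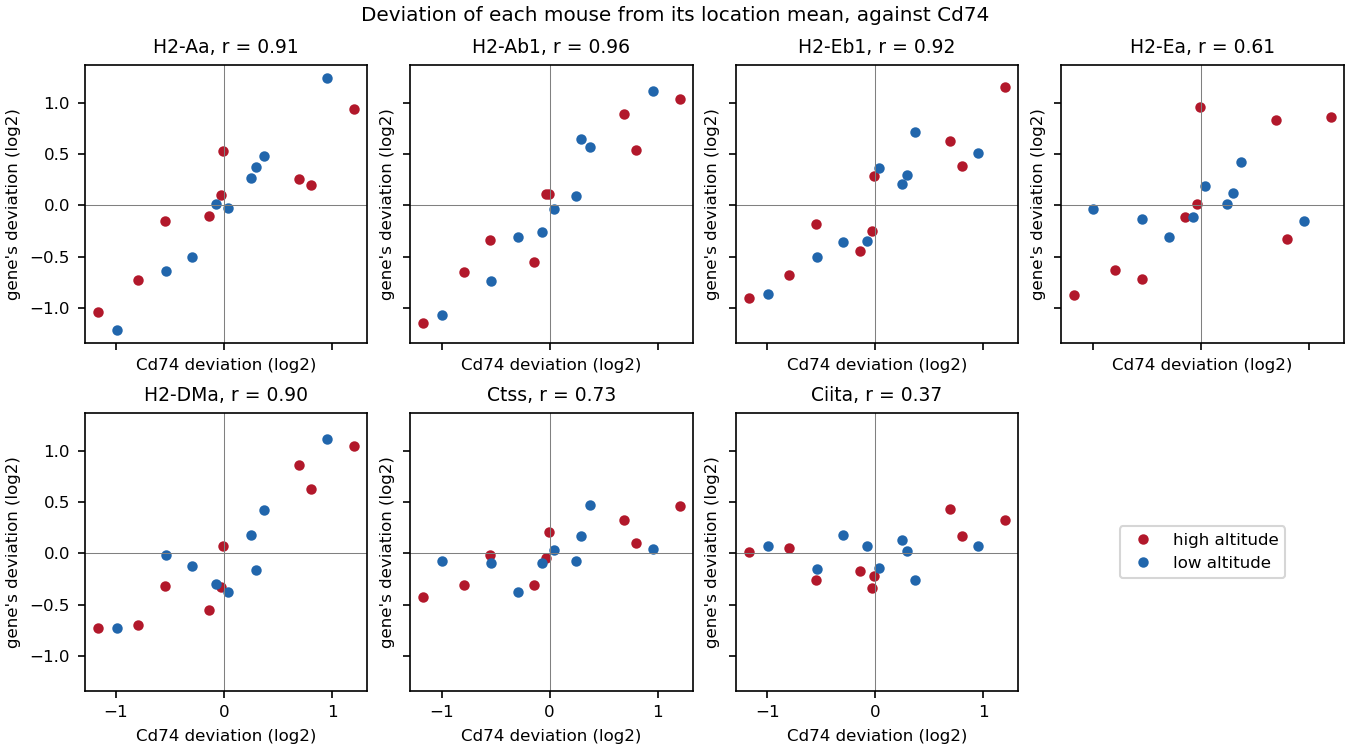
Deviation of each mouse from its location mean for Cd74 (horizontal axis, log2) and for each of the other 7 genes (vertical axis, log2), brightest probe set of each gene, with high altitude mice in red and low altitude mice in blue. Points for H2-Aa, H2-Ab1, H2-Eb1 and H2-DMa follow Cd74 with r of 0.90 to 0.96, Ctss and H2-Ea scatter more, and Ciita varies little.

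Among 12221 genes whose brightest probe set lay above the median level, H2-Ab1, H2-Eb1, H2-Aa and H2-DMa ranked 1 to 4 by this r with Cd74. Ctss ranked 88 and H2-Ea 302. The 8 genes outside the class II set with the highest r over the 18 mice were Cyba, a subunit of the phagocyte NADPH oxidase, at 0.88, Prkcb at 0.88, the galectin gene Lgals3 at 0.87, the lymphocyte and myeloid surface gene Cd52 at 0.86, Dock2, a guanine exchange factor of leukocytes, at 0.86, the inflammasome adaptor gene Pycard at 0.86, Tasor2 at 0.85 and the cytoskeletal linker gene Msn, encoding moesin, at 0.85. They were ranked over many genes and carry no test. Their altitude differences were 0.38, 0.30, 0.22, 0.83, 0.27, 0.34, -0.61 and 0.46 on the log2 scale, with limma adjusted p from 0.286 to 0.822, so Tasor2 had the opposite sign to the class II genes.

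Markers of the cells that may carry class II were set beside these values, and their part in the class II differences was not tested. Of 92 measured marker genes in 12 lists, limma called 1 for altitude, against 0.363% of all genes. This was Jchain, the plasma cell joining chain gene (8.72 ± 0.96 against 6.38 ± 0.60, SD, n = 9 per altitude, adjusted p = 0.00361). The median of the 5 plasma cell markers was 0.000056, with 3 of 5 positive and no other called. Over all genes 51.6% of the differences were positive. For the 6 pan-leukocyte genes every difference was positive, median 0.59, and 0 were called. Their mean level per mouse ran from 6.98 to 9.01 at high and from 6.30 to 8.21 at low altitude, and by location it was 8.46, 7.56 and 7.38 in high A, B and C and 7.19, 7.65 and 6.78 in low A, B and C.

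Kupffer cell and macrophage markers were higher at high altitude for 11 of 12 genes, against 51.6% of all genes, with a median of 0.30 and 0 called. Their mean level ran from 8.61 to 10.07 at high and from 8.59 to 9.73 at low altitude. Dendritic cell markers had 8 of 11 positive, with a median of 0.05 and a mean level from 5.57 to 5.83 against 5.54 to 5.84. B cell markers had 5 of 9 positive, with a median of 0.03, and only 2 of the 9 lay above the median probe set level. Monocyte markers had a median of 0.28 and T and NK cell markers of 0.15, endothelial markers -0.02 and hepatocyte markers 0.01. Nkg7, a granule gene of cytotoxic lymphocytes, was the 1 marker gene called between the high locations (limma adjusted p = 0.0498), against 43 of all 18193 genes.

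Within locations, Cd74 went with the pan-leukocyte list, with r = 0.86 and rho = 0.86 over 18 mice (exact two-sided permutation within locations, adjusted over 12 lists, p = 0.0018 for r and 0.00257 for rho), and r = 0.85 without the 2 mice farthest in Cd74. This list holds Cd52. Kupffer cell and macrophage markers gave r = 0.68 and rho = 0.64, and T and NK cell markers r = 0.67 and rho = 0.58 (adjusted exact permutation p = 0.144 and 0.12 for r, both 0.167 for rho). Without those 2 mice r was 0.44 and 0.74. Neither passed, nor did the B cell list (r = -0.44, rho = -0.44) or the dendritic cell list (r = -0.04, rho = -0.12; adjusted exact permutation p for r = 0.208 and 0.915).

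The other genes of the pathway were listed with earlier results of these data known. The class II genes were selected on their altitude difference, so nothing is read from partner values set beside theirs. Of 42 measured partner genes in 8 groups, 32 differences were positive, against 51.6% over all genes, with a median of 0.11. Of these 42 genes limma called 0, against 0.363% of all genes. At an unadjusted p under 0.05 there were 12, 11 of them higher at high altitude, against 11.5% of all genes. Without low B2 3 genes were called, Nlrc5, Psmb9 and Psmb10, without low location B the genes Nlrc5 and Psmb10, and without high C1 Nlrc5.

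The regulators upstream of Ciita and the factors that bind class II promoters showed small differences. The median was 0.02 over 7 genes from interferon gamma to Ciita, with the largest for Irf1, an interferon-induced transcription factor, at 0.49 ± 0.18 (SE, limma adjusted p = 0.308). Among 7 promoter complex genes (Rfx5, Rfxank, Rfxap, Nfya, Nfyb, Nfyc and Creb1) the median was -0.02, and Nfyb, a subunit of the CCAAT-binding factor, had the smallest p, at -0.35 ± 0.14 (SE, adjusted p = 0.355). Of the endosomal processing genes all 6 were positive, led by the cathepsin gene Ctsb at 0.53 ± 0.20 (SE, adjusted p = 0.313). H2-Oa, part of the DM inhibitor, differed by 0.17 ± 0.06, the ubiquitin ligase gene Marchf8 by -0.18 ± 0.10, the costimulatory receptor gene Cd40 by 0.15 ± 0.08 and Cd4 by 0.11 ± 0.08 (SE, adjusted p from 0.279 to 0.742).

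Class I presentation genes had the highest median of the 8 partner groups. All 10 had higher means at high altitude, against 51.6% of all genes, with a median of 0.73. Of these, 7 had an unadjusted p under 0.05, against 11.5% of all genes, and limma called 0. Nlrc5, the class I counterpart of Ciita, averaged 7.15 ± 0.41 in the high mice and 6.41 ± 0.38 in the low mice (SD, n = 9 per altitude, limma adjusted p = 0.0732), with all 9 high mice above the low mean. In the RefSeq annotation the class I genes Psmb9, Tap1, Psmb8 and Tap2 lie between H2-DMb1 and H2-Ab1, followed by H2-Aa, H2-Eb1 and H2-Ea. This region also holds H2-DMb2 before H2-DMb1, H2-Ob before H2-Ab1 and H2-Eb2 before H2-Ea. Their altitude differences were 0.12, 0.04 and -0.10 on the log2 scale, on single-gene probe sets.

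**Figure D5:**
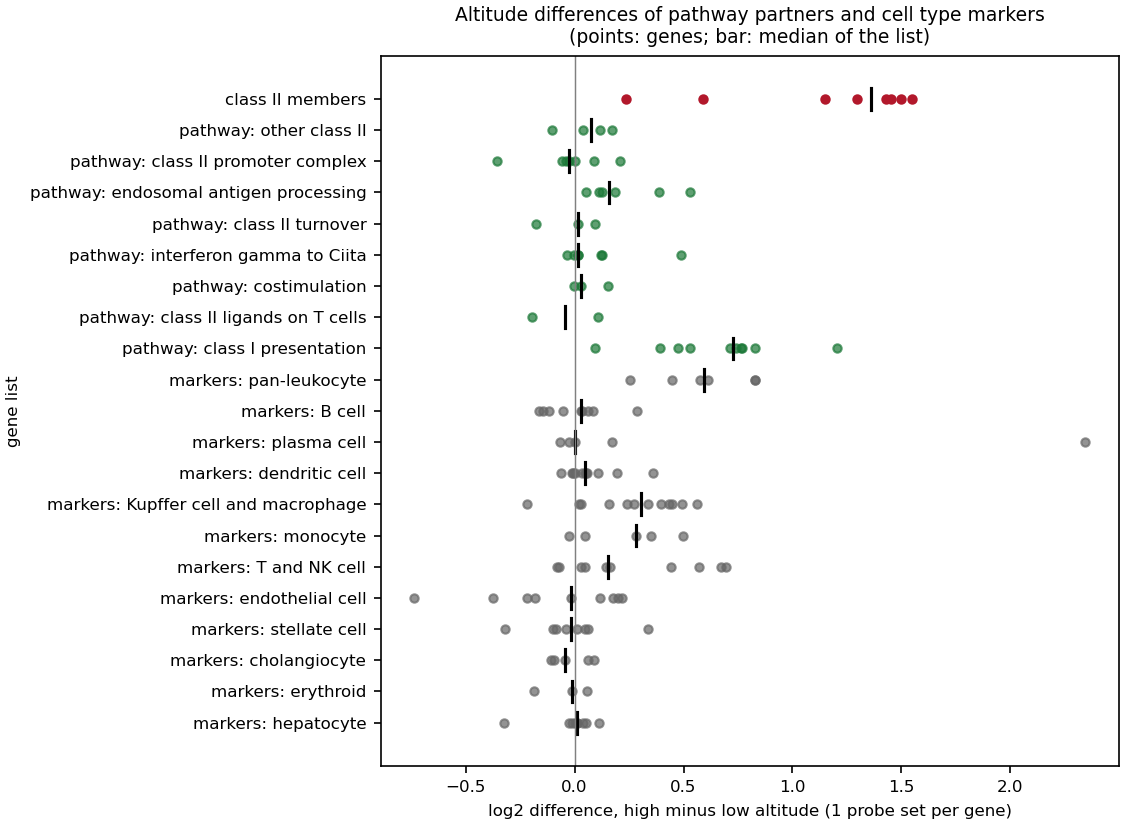
Log2 difference between high and low altitude means (horizontal axis, 1 probe set per gene) for the 8 class II genes in red, for 8 groups of pathway partners in green and for 12 lists of cell type markers in grey, with a bar at each list's median. The class II genes, selected on this difference, have a median of 1.36; of the other lists the class I presentation genes have a median of 0.73 and the pan-leukocyte markers of 0.59, while the promoter complex, dendritic cell, B cell and hepatocyte lists have medians within 0.05 of 0.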

How the data were processed

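The deposited table held 45101 probe sets for 18 arrays as log2 values, a scale read from the values, and the submitters' processing notes name affy and RMA. Their versions are not stated in what was used here. After 64 control probe sets were left out, 45037 were analysed with no filter on dim ones. Gene names came from GEO's platform annotation, and 8 of the 8 measured members matched the RefSeq gene table. The brightest probe set of a gene is the one with the highest mean over 18 arrays. Altitude was fitted in limma 3.58.1 (R 4.3.3), taking location as a random block (consensus correlation -0.00189), and location in a fit of 6 location means, with a mean-variance trend and Benjamini-Hochberg adjustment over all 45037 probe sets; the procedure was tested on simulated data. Correlations used deviations from location means and all 46656 permutations within locations, with Python 3.11.15 and scipy 1.17.1. Figures used matplotlib 3.10.9. Members, gene lists, tests and the rule for named genes were chosen with earlier results of these data known. That rule names every member, the partner gene with the smallest p per group, the 8 genes most like Cd74 and called markers. Psmb9 and Psmb10 were named for calls under alternatives, after seeing the values. The class I genes, H2-DMb2, H2-Ob and H2-Eb2 were named for their position, also after seeing the values. So were the marker list correlations and the H2-Aa and H2-Ea probe set comparison chosen. Of the listed genes, 9 had no single-gene probe set and were not analysed here. The labels do not state whether mice of a location were related.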

Additional observations from a re-analysis of the deposited data

Results flagged for a closer look

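H2-DMa on 1422527_at had 1 low altitude mouse, low B2 at 8.05, far above the other 8, with a gap to the next mouse of 0.609 of the group's range, past Dixon's critical value for 9 samples. This was 1 of 36 sets of 9 mice examined (18 probe sets at 2 altitudes). Chance passes that critical value in about 1 of 20 independent sets, but these sets share mice and are not independent.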

How the results depend on the processing

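The altitude median over the member probe sets, 1.11 in the main analysis, stayed positive under every alternative. It ran from 0.75 without high location A to 1.36 without high location C or with 1 probe set per gene. The count of member probe sets called for altitude was 1 in the main analysis. It was 0 with array quality weights, with 1 mean per location and without the location high A, high B, low B or low C. The count was also 0 with 1 probe set per gene, but that setting leaves out the called H2-Ea probe set and cannot test its call. It was 2 with the RNA integrity covariate, 5 without high location C, and 0 to 6 with single mice left out (0 without low B3, 2 without low B2, 6 without high C3). The count called between high locations, 1, was 0 among probe sets above the median level, with 1 probe set per gene and with the 9 high mice alone, and 0 to 1 with single mice left out; the first pair of settings do not include that dim probe set. The partner count, 0, was 1 with array quality weights, 2 without low location B, and 0 to 3 with single mice left out. The number of marker lists correlated with Cd74, 1, was 1 to 2 with single mice left out. Mouse numbers do not pair the mice: deviations of same-numbered mice correlated at -0.01 on average over 40 pairs, and 4 of 17 mice correlated best with their own number. With mouse number as a replicate block the counts stayed at 1 for altitude, 1 and 0 for locations and 0 for partners, with an altitude median of 1.07. With 3 mice per location, differences below the spread between mice of a location could not be resolved.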

Other observations

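The 2 probe sets annotated to both H2-DMb1 and H2-DMb2, the beta chains of the peptide exchange factor, cannot be assigned to either gene. On 1449580_s_at the 9 high altitude mice ran from 6.02 through a median of 7.16 to 8.70 and the 9 low altitude mice from 5.92 through 6.13 to 7.47, with high A1 the highest mouse and low B2 the highest low altitude mouse, as for H2-DMa. The log2 difference between altitudes was 0.86 ± 0.27 (SE, limma adjusted p = 0.212). On 1418638_at it was 0.67 ± 0.24 (SE, adjusted p = 0.302), and 8 of 9 high mice lay above the low mean on both.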
